A study of Mus musculus with 4 samples.

Results

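The 10 genes described here, Klf2, Klf3, Klf4, Klf5, Klf6, Klf9, Klf10, Klf13, Klf15 and Klf16, encode Krueppel-like factors, and they were taken by symbol from the 14519 genes of the deposited expression table. The table lists 15 symbols of this family in all, and the other 5 (Klf1, Klf7, Klf8, Klf11 and Klf12) are given further on beside the related Sp factors. RNA came from 2 cell populations sorted from the epithelium of the mouse colon: deep crypt secretory (DCS) cells, which carried the reporter Reg4-dsRed, and stem cells, which carried Lgr5-GFP. There were 2 libraries of each population, Reg4+ DCS replicates 1 and 2 and Lgr5+ replicates 1 and 2, and the submitters describe the 2 rounds of sorting as biological replicates. The strain, age and sex of the mice, and how many were pooled for a sort, are not stated in the labels used here. No treatment is named, and the groups differ in the reporter used to collect the cells. The comparison asks which genes set DCS cells apart from the stem cells they sit between, and it is read here for the Klf genes.

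Krueppel-like factors bind DNA through C2H2 zinc fingers at the C-terminus, which recognise GC-rich and CACCC sequences, while their N-termini differ and recruit activators or repressors. In the gut, Klf5 is known as a factor of dividing crypt cells and Klf4 as one of differentiated cells that leave the cell cycle, and mice that lack Klf4 have defective colonic goblet cells. Several members, Klf2, Klf4, Klf6 and Klf10 among them, are also induced quickly by growth factors, shear stress or cell stress.

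Values are RPM, reads of a gene scaled to the total of its library, from CEL-seq, which tags the 3′ end of a transcript, so that RPM was not divided by gene length. The libraries held 5205723 and 7955340 reads (Lgr5+) and 7414264 and 5448260 reads (Reg4+ DCS), as recovered from the step sizes of the values. Reg4 stood at 6187 and 5899 RPM in DCS cells and 796 and 363 RPM in Lgr5+ cells, and Lgr5 at 0.989 and 3.13 against 46.5 and 48.8 RPM. As both genes drove the reporters, these values check the labels only. All 9 goblet cell markers on a fixed list rose in Reg4+ DCS cells, and all 8 tuft cell markers tested were higher in Lgr5+ cells. The shares over all tested genes were 7.18% and 26.9%. In bulk RNA such as this, fewer cells of a type and less RNA per cell cannot be told apart.

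Klf4, Klf6 and Klf5 were the most abundant of the 10 genes in both populations, in different orders. In Reg4+ DCS cells the order by mean RPM was Klf4 (863), Klf6 (546), Klf5 (373), Klf10 (137), Klf2 (105), Klf13 (97.7), Klf9 (55.7), Klf3 (43.3), Klf16 (24.6) and Klf15 (1.56). Within that order Klf2 and Klf13 overlapped between libraries, as did Klf9 and Klf3, while the other neighbours were apart. In Lgr5+ cells the order was Klf6 (354), Klf5 (311), Klf4 (249), Klf10 (142), Klf13 (123), Klf3 (45.1), Klf9 (35.4), Klf2 (30.2), Klf16 (27.4) and Klf15 (1.71). There only Klf13 and Klf3, and Klf16 and Klf15, were apart from each other among neighbours. Klf2 thus held rank 5 in DCS cells and rank 8 in Lgr5+ cells. The Klf4 mean lay above 99.0% of all genes in DCS cells and 96.2% in Lgr5+ cells.

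**Figure D1:**
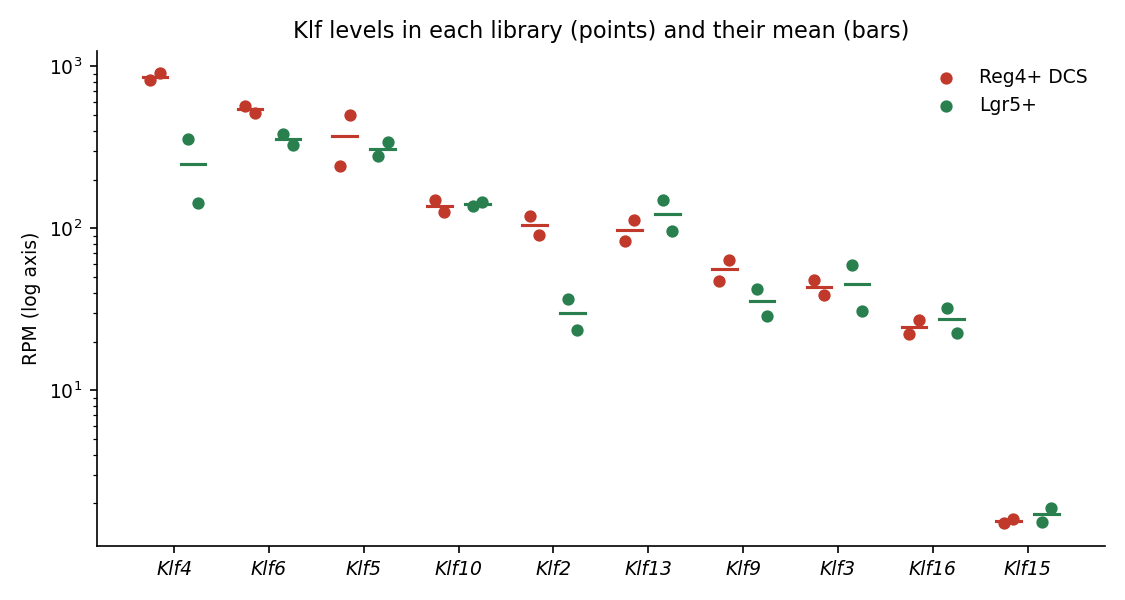
RPM of the 10 Klf genes on a log axis, with 1 point per library and a bar at the mean of each population (red, Reg4+ DCS; green, Lgr5+), ordered by the Reg4+ DCS mean. The red and green points of Klf4, Klf2, Klf6 and Klf9 do not overlap, and those of the other 6 genes do.

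Klf4 rose in Reg4+ DCS cells. It is the family member tied to goblet cell differentiation and a repressor of cell division. It stood at 819 and 907 RPM in Reg4+ DCS replicates 1 and 2. In Lgr5+ replicates 1 and 2 it stood at 355 and 144 RPM, with no overlap between the populations. The Lgr5+ libraries lay further apart than the DCS libraries. Each DCS value is a mean of 2 parts, given below, so the 2 spreads are not alike. The means were 863 ± 62.6 and 249 ± 149 RPM (mean ± SD, with n = 2 libraries in each population), 3.46-fold apart. On the log2(RPM + 1) scale the difference was 1.93 (SE 0.39, 95% interval 1.03 to 2.82), with a limma adjusted p of 0.00795 over all genes tested. Without Lgr5+ replicate 1 the ratio of means was 6.01 and the log2 difference 2.58, and without Lgr5+ replicate 2 they were 2.43 and 1.28. The adjusted p was 0.0615 without Reg4+ DCS replicate 1 and 0.0556 without Reg4+ DCS replicate 2. Lgr5+ replicate 1, the one higher in Klf4, also held more goblet cell transcripts (6407 RPM summed over 9 markers, against 2478 in replicate 2), more of the 9 absorptive colonocyte markers in the table (1116 against 224 RPM) and more of the 8 tuft markers (1099 against 336 RPM). The part of these cells in the Klf4 spread was not tested.

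Klf2 rose by a like amount from a lower level. It is best known as a quiescence factor of endothelial cells and naive T cells. Its values were 119 and 91.3 RPM in DCS cells and 36.7 and 23.6 RPM in Lgr5+ cells, again with no overlap. The means of 105 ± 19.6 and 30.2 ± 9.23 RPM were 3.49-fold apart, and the log2 difference was 1.79 (SE 0.29, 95% interval 1.12 to 2.45, limma adjusted p = 0.00322). Klf2 stayed higher in DCS cells without any 1 library, with log2 differences from 1.48 to 2.09. Markers of the other cells that express Klf2 were read in the same libraries. Of 9 endothelial markers, 4 were in the table, and Pecam1, Tek and Eng had listed values of 0 in both DCS libraries. A listed 0 is not read here as measured absence, and the sums that follow include such zeros. The sum of the 4 markers was 2.49 and 5.32 RPM in DCS cells and 11.5 and 9.30 RPM in Lgr5+ cells. Of 12 leukocyte markers, 5 were in the table, and their sum was 1.62 and 1.20 RPM in DCS cells against 45.7 and 14.2 RPM in Lgr5+ cells. The part of either cell type in the Klf2 values was not tested.

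The reads behind these values could be recovered, and the 2 parts that make up each Reg4+ DCS column could be read apart. Klf4 had 6884 and 5001 reads in the Reg4+ DCS and 1847 and 1143 reads in the Lgr5+ libraries. Its level in the 4 parts was 1043 and 595 RPM (replicate 1) and 1009.9 and 805 RPM (replicate 2), each above both Lgr5+ libraries. Klf2 had 924 and 490 reads against 191 and 188, and its 4 parts lay at 131, 107, 78.2 and 104 RPM, also above both Lgr5+ libraries. The labels do not say what the parts were, and they were not counted as replicates.

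Klf4 and Klf2 were the 2 members called, so the sequence before their start sites is shown, as a description of where the letters bound by their own family lie. Klf4 lies on mm10 chromosome 4 (55527143 to 55532466, minus strand) and Klf2 on chromosome 8 (72319033 to 72321656, plus strand). The 250 bases before the RefSeq start (GRCm38.p6, the assembly of mm10) are chr4:55532476-55532725, minus strand, for Klf4 and chr8:72318812-72319061, plus strand, for Klf2. The Klf2 window runs past 72319033, where the gene begins in the coordinates above. Its last bases, with the CACCC box, therefore lie inside the gene as placed there. Capitals mark GC boxes (GGGCGG, on either strand), CACCC boxes (CACCC, on either strand) and a MEF2 site.
Klf4: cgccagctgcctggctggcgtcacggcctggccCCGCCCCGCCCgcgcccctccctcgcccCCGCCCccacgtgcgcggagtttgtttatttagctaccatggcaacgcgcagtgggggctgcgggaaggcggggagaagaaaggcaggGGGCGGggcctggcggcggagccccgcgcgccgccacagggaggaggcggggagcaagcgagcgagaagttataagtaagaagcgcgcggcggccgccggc
Klf2: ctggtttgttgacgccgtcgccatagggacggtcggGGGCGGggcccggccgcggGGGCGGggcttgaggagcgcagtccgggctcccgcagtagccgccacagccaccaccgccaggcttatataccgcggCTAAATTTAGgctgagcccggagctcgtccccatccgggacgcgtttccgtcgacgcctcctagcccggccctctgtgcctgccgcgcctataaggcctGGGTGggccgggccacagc
The Klf4 window held 4 GC boxes, of which 2 share a base, and 0 CACCC boxes. The Klf2 window held 2 GC boxes, 1 CACCC box and 1 match to the MEF2 site, CTAAATTTAG, at 118 to 109 bases before the start. Over the 9803 windows of tested genes, searched on both strands, 59.2% held a GC box, 57.2% a CACCC box and 1.37% a MEF2 match. Of the 10 genes, 7 were in the promoter table, and 6 of the 7 held a GC box, 5 a CACCC box and 1 a MEF2 match. Also searched for were an E-box (CACGTG), CRE (TGACGTCA), TATA box (TATAAA) and CArG box (CCWWWWWWGG, W is A or T). The E-box, left in small letters, occurred 1 time in the Klf4 window. It was in 3 of the 7 windows and in 8.72% of those of tested genes. The CRE, TATA box and CArG box were in 0 of the 7. The GC content was 74.0% for Klf4 and 71.2% for Klf2, against a median of 60% over the windows of tested genes. These counts describe letters and show no binding.

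Klf6 and Klf9 lay higher in Reg4+ DCS cells in every library, and neither passed the test on the RPM scale. Klf6, an immediate early member that responds to injury, stood at 573 and 518 RPM in DCS cells and 382 and 326 RPM in Lgr5+ cells. The populations did not overlap, the ratio of means was 1.54, and the log2 difference was 0.62 (SE 0.22, 95% interval 0.11 to 1.14, limma adjusted p = 0.0617). Its 4 DCS parts ranged from 497 to 627 RPM, above both Lgr5+ libraries. Klf9, a repressor induced by glucocorticoids and thyroid hormone, stood at 47.3 and 64.1 RPM against 42.1 and 28.8 RPM. The difference was 0.65 (SE 0.29, 95% interval −0.02 to 1.32, limma adjusted p = 0.114), and 1 of its 4 DCS parts, at 33.3 RPM, fell between the Lgr5+ values. Klf6 and Klf9 lie on chromosome 13 (5861482 to 5870394) and chromosome 19 (23141226 to 23168134).

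Klf5, the factor of dividing crypt cells, was not called in either direction. It stood at 243 and 502 RPM in DCS cells and 279 and 343 RPM in Lgr5+ cells. The DCS values enclosed both Lgr5+ values, with a log2 difference of 0.17 (SE 0.34, 95% interval −0.61 to 0.96, limma adjusted p = 0.712). Without Reg4+ DCS replicate 2 the difference was −0.35, and without replicate 1 it was 0.70. Both parts of replicate 1 were lower in Klf5 (289 and 197 RPM) than both parts of replicate 2 (404 and 601 RPM). The interval leaves room for a change of either sign. Klf5 lies on chromosome 14 (99298691 to 99315036).

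Klf10 had the narrowest interval of the 9 tested members. This gene, first known as an early response gene of TGF-beta, stood at 149 and 125.7 RPM in DCS cells and 137 and 146 RPM in Lgr5+ cells, and its log2 difference was −0.051 (SE 0.22, 95% interval −0.56 to 0.46, limma adjusted p = 0.873). The DCS libraries again lay on either side of the Lgr5+ libraries. Klf3, a repressor that works through CtBP, stood at 48.0 and 38.7 RPM against 59.4 and 30.8 RPM, with a difference of 0.0087 (95% interval −0.77 to 0.79, adjusted p = 0.986). Its Lgr5+ libraries lay outside the DCS libraries on both sides. The 2 parts of Reg4+ DCS replicate 1 lay at 75.3 and 20.6 RPM, above and below both Lgr5+ libraries. Those of replicate 2 lay at 39.3 and 38.1 RPM.

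Klf13 and Klf16 belong with Klf9 to the branch of the family that recruits the Sin3 corepressor. Klf13 stood at 83.1 and 112 RPM in DCS cells and 150 and 95.9 RPM in Lgr5+ cells, with a difference of −0.31 (95% interval −0.97 to 0.35, limma adjusted p = 0.420). Klf16 stood at 22.2 and 27.1 RPM against 32.3 and 22.6 RPM (−0.14, 95% interval −0.81 to 0.54, adjusted p = 0.739). In both genes the populations overlapped. Klf15, a glucocorticoid-induced regulator of amino acid and glucose metabolism, stayed under the filter, at 1.51 and 1.61 RPM in DCS cells and 1.54 and 1.89 RPM in Lgr5+ cells. These Klf15 values rest on 9, 9, 8 and 15 reads, and the gene was not tested. Klf10 lies on chromosome 15 (38291463 to 38300706), Klf3 on chromosome 5 (64803388 to 64832901), Klf13 on chromosome 7 (63886351 to 63938915), Klf16 on chromosome 10 (80567124 to 80577321) and Klf15 on chromosome 6 (90462576 to 90475238), and no other gene covers the 3′ end of any of the 10.

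Of the 10 genes, 9 passed the filter of 5 RPM in at least 2 libraries. With limma, 2 of the 9 rose in Reg4+ DCS cells, where 7.18% of the 10183 tested genes did. None of the 9 was higher in Lgr5+ cells (0 by limma, edgeR and DESeq2, and 0 at an unadjusted p under 0.05 by limma), where 26.9% of tested genes were. Both DCS libraries lay above both Lgr5+ libraries for 4 of the 9 (Klf2, Klf4, Klf6 and Klf9), against a background of 16.1%, and the reverse held for 0 of the 9, against 56.2%. The median log2 difference was 0.17 over the 9 and −0.47 over all genes tested. With so few members, chosen with earlier results of these data known, these shares are a description of the list and not of the Klf family. Of the other Klf genes 3 were tested, and limma called 2 of them, Klf7 (−1.09) and Klf12 (−1.22), higher in Lgr5+ cells. For those 2 both Lgr5+ libraries lay above both DCS libraries, and for 1, Klf11, the reverse held. edgeR and DESeq2 on the recovered reads also called Klf2 and Klf4 and no other member, with edgeR adjusted p of 0.00439 and 0.0114, where they called 6.98% and 7.08% of genes in that direction and 26.7% and 25.8% in the other.

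**Figure D2:**
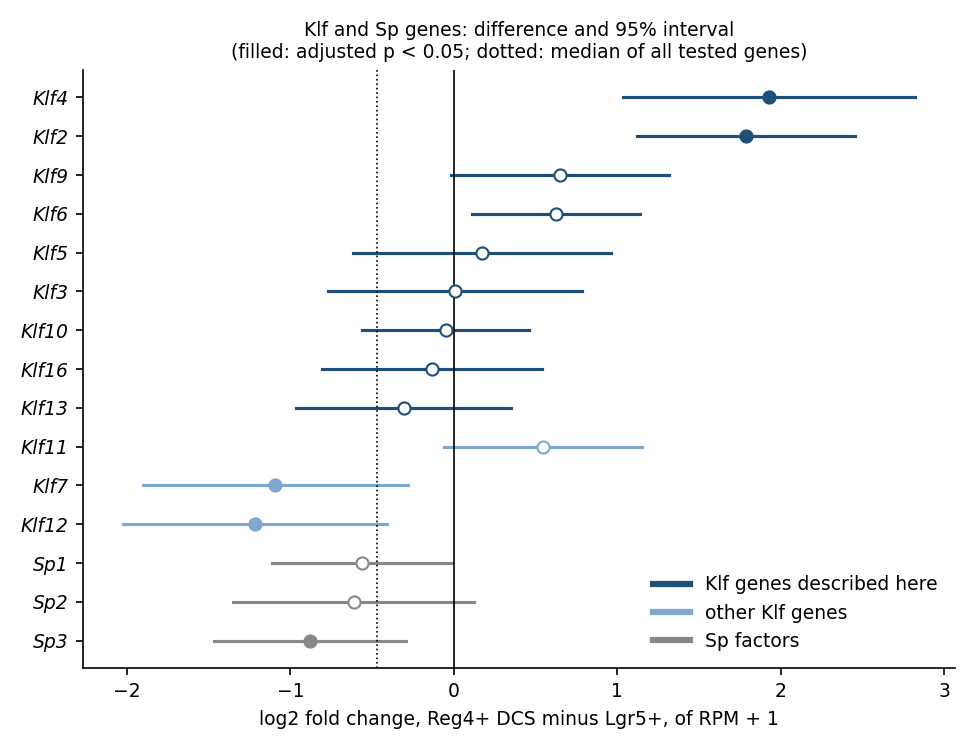
Log2 difference between Reg4+ DCS and Lgr5+ cells, on the RPM + 1 scale, with its 95% interval from limma, for the tested Klf genes, the other Klf genes of the table and the Sp factors. Filled points passed the test. Klf4 and Klf2 stand at 1.93 and 1.79, Klf7, Klf12 and Sp3 at −1.09, −1.22 and −0.88, and the dotted line marks the median of all genes, −0.47.

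RPM is relative to the whole library, and a few mucus genes took a large share of the DCS reads: the 9 goblet markers alone summed to 210619 and 139466 RPM there, against 6407 and 2478 RPM in Lgr5+ cells. Median-of-ratios scaling, which sets the median gene near 0 (0.03), moved all members up. The differences became 2.44 for Klf4, 2.29 for Klf2, 1.15 for Klf9 and 1.13 for Klf6, and all 4 were then called (limma adjusted p from 0.00107 to 0.00988), where 16.0% of tested genes were called in that direction and 12.3% in the other. TMM scaling called the same 4 members, against 15.6% of genes in that direction and 12.5% in the other. Klf10, Klf13 and Klf16 changed sign under both scalings, to 0.46, 0.20 and 0.35 under median-of-ratios, and were not called.

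**Figure D3:**
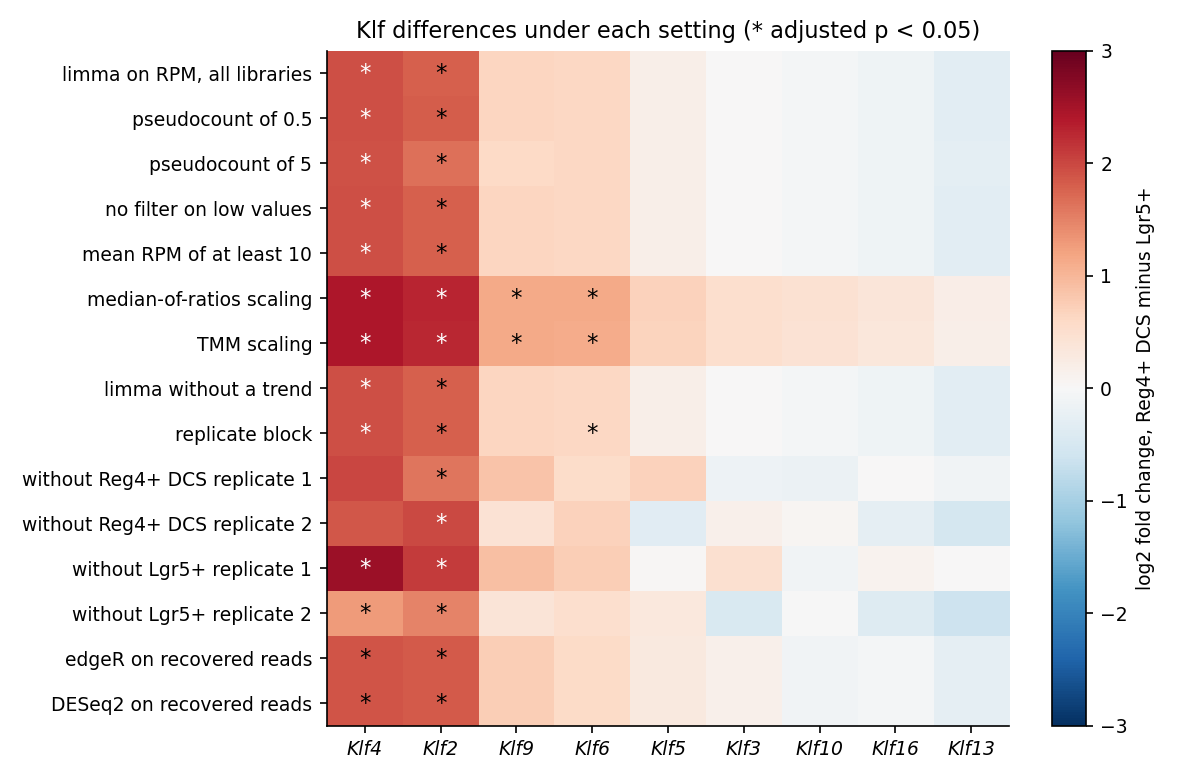
Log2 difference (colour, Reg4+ DCS minus Lgr5+) of the 9 tested Klf genes under the reported fit (top) and 14 alternatives, with a star where the adjusted p was under 0.05. Klf2 carries a star in every line, Klf4 in all but the 2 that leave out a Reg4+ DCS library, and Klf6 and Klf9 under the 2 other scalings, with Klf6 also under the replicate block, where 8.94% of genes were called in the DCS direction and 34.7% in the other.

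A ratio of 2 genes within a library does not depend on the scaling between libraries. In a DCS library it is a ratio of 2 means, each over 2 separately scaled parts. The ratio of Klf4 to Klf5 RPM was 3.37 and 1.81 in the Reg4+ DCS libraries and 1.27 and 0.419 in the Lgr5+ libraries, so that Klf4 exceeded Klf5 in both DCS libraries and in 1 of 2 Lgr5+ libraries. On the log2 scale this ratio was 1.76 higher in DCS cells, with no overlap. Klf2 to Klf5 was 0.490 and 0.182 against 0.132 and 0.0689, a log2 difference of 1.65, also without overlap. Klf4 to Klf6 was 1.43 and 1.75 against 0.929 and 0.440, and Klf2 to Klf6 was 0.208 and 0.176 against 0.0960 and 0.0724. In part 2 of Reg4+ DCS replicate 1 Klf4 (595 RPM) lay below Klf6 (627 RPM), and in the other DCS parts above it. The ratio of Klf2 to Klf4 overlapped between populations, at 0.145 and 0.101 against 0.103 and 0.164, as did Klf6 to Klf5. With 2 libraries against 2 an exact permutation test cannot go below a two-sided p of 0.333, and none is given.

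**Figure D4:**
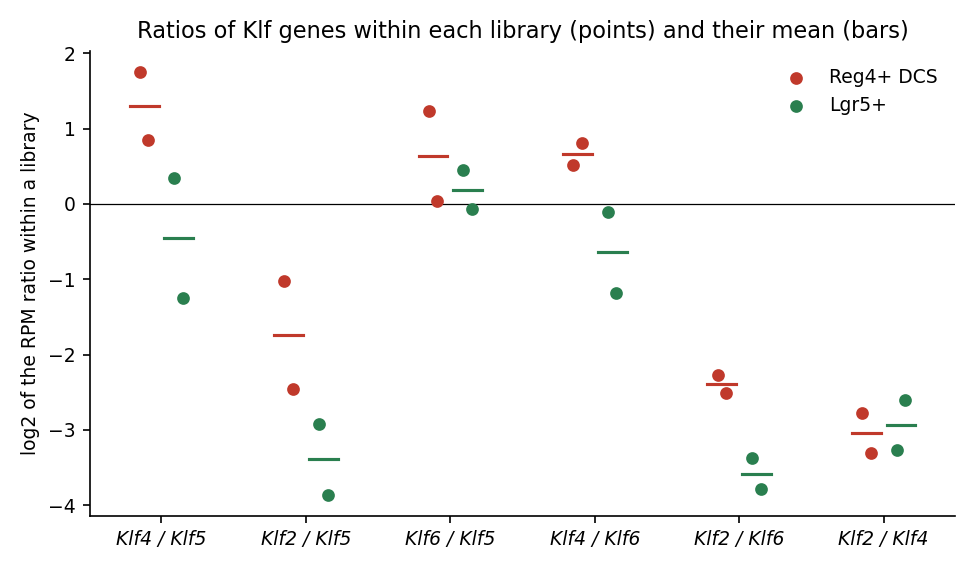
Log2 of the ratio of 2 Klf genes within each library, with 1 point per library and a bar at the population mean. Points of Klf4 / Klf5, Klf2 / Klf5, Klf4 / Klf6 and Klf2 / Klf6 are apart and higher in Reg4+ DCS cells, and those of Klf6 / Klf5 and Klf2 / Klf4 overlap.

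Summed over the 10 genes, Klf transcripts made up 2104 and 2389 RPM in DCS cells and 1474 and 1163 RPM in Lgr5+ cells. Klf4 contributed 38.9% and 38.0% of that sum in DCS cells and 24.1% and 12.4% in Lgr5+ cells. The Klf6 share was 27.2% and 21.7% against 25.9% and 28.0%, and overlapped. Klf13 made up 3.95% and 4.70% of the sum in DCS cells and 10.1% and 8.25% in Lgr5+ cells, a smaller share in both DCS libraries although its RPM overlapped. The same held for Klf10 (7.06% and 5.26% against 9.29% and 12.6%), Klf3 (2.28% and 1.62% against 4.03% and 2.65%), Klf16 (1.05% and 1.14% against 2.19% and 1.95%) and Klf15. These shares move together, since a larger share of Klf4 lowers the others.

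None of the other Klf genes of the table was called in the direction of Klf2 and Klf4 on the RPM scale. Of the 3 tested, 2 were higher in Lgr5+ cells by limma and 0 in DCS cells, where 26.9% and 7.18% of all tested genes were. Klf7, a factor of neurons and progenitors, stood at 11.5 and 9.77 RPM in DCS cells and 32.3 and 17.5 RPM in Lgr5+ cells (−1.09, limma adjusted p = 0.0447). Klf12, a repressor that acts through CtBP, stood at 2.97 and 1.78 against 6.53 and 6.91 RPM (−1.22, adjusted p = 0.0306). Both calls were lost under median-of-ratios scaling (0.206 for Klf7 and 0.145 for Klf12) and without either Reg4+ DCS library (0.121 and 0.140 for Klf7, 0.0662 and 0.105 for Klf12, without replicates 1 and 2). Both also missed with no filter on low values (0.0805 and 0.0517), and Klf12 with edgeR (0.0593) and DESeq2 (0.145) on recovered reads. Klf12 was called in 4 of 11 alternatives and Klf7 in 8 of 14. Klf7 was also lost without Lgr5+ replicate 1 (0.290), and Klf12 was not tested without either Lgr5+ library. Klf11, the close relative of Klf10, stood at 43.6 and 33.9 against 26.3 and 25.8 RPM (0.55, adjusted p = 0.138), and was called higher in DCS cells under median-of-ratios scaling (0.0220). Klf1, the erythroid factor, lay between 0.0905 and 0.384 RPM in all libraries. Klf8 was listed at 0 in both DCS libraries and at 0.576 and 0.754 RPM in Lgr5+ cells.

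Sp factors carry similar zinc fingers and bind GC boxes. Of the 3 tested, 1 was higher in Lgr5+ cells and 0 in DCS cells, and all 3 lay lower in both DCS libraries than in both Lgr5+ libraries. Among all tested genes 26.9% were called higher in Lgr5+ cells and 56.2% had both Lgr5+ libraries on top, so these counts are not read as particular to Sp factors. Sp3 stood at 24.1 and 21.5 RPM in DCS cells and 39.96 and 45.5 RPM in Lgr5+ cells (−0.88, limma adjusted p = 0.0313), which missed the threshold with median-of-ratios scaling (0.294) and whichever library was left out (0.0595 to 0.137). Sp1, the ubiquitous member, stood at 77.4 and 93.3 against 113 and 140 RPM (−0.56, adjusted p = 0.0985), and Sp2 at 8.80 and 12.7 against 14.8 and 18.9 RPM (−0.61, adjusted p = 0.165). Sp5, a Wnt target, was listed at 0 in both DCS libraries and at 4.80 and 4.90 RPM in Lgr5+ cells, under the filter. Sp6 was also listed at 0 in both DCS libraries, with 0.768 and 0.126 RPM in Lgr5+ cells, and Sp4 lay between 1.57 and 3.27 RPM throughout.

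Cofactors of Klf proteins, and the enzymes that add or remove their ubiquitin, were read from 2 lists. Of 10 cofactors, 0 rose in DCS cells and 4 were higher in Lgr5+ cells by limma (Sin3a, Hdac1, Ctbp2 and Hdac3), with a median of −0.75. Over all tested genes 26.9% were higher in Lgr5+ cells and 7.18% in DCS cells, with a median of −0.47, so that these lists are read against a general skew to Lgr5+ cells. Sin3a, the scaffold used by Klf9, Klf13 and Klf16, stood at 27.3 and 20.3 against 48.4 and 55.3 RPM (−1.11, adjusted p = 0.0164), and Hdac1, a histone deacetylase, at 53.1 and 59.5 against 128 and 94.8 RPM (−0.96, adjusted p = 0.0208). Under both other scalings 0 of the 10 were higher in Lgr5+ cells and 1 was higher in DCS cells, and the 4 became 1 without Reg4+ DCS replicate 1, and 2 without Reg4+ DCS replicate 2 or Lgr5+ replicate 2. Of 8 genes of Klf protein turnover, 1 rose in DCS cells and 3 were higher in Lgr5+ cells (Bap1, Wwp1 and Usp3), with a median of −0.72. The riser was Fbxo32, an F-box protein that targets Klf4 for degradation, at 93.1 and 105 against 25.5 and 17.3 RPM (2.18, limma adjusted p = 0.00106), and it kept its call under all 14 alternatives. Bap1, a deubiquitinase that stabilises Klf5, stood at 24.3 and 18.8 against 36.1 and 54.8 RPM (−1.02, adjusted p = 0.0329), and Wwp1, a ubiquitin ligase of Klf5, at 18.8 and 19.7 against 36.7 and 36.5 RPM (−0.89, adjusted p = 0.0297). The 3 calls in the Lgr5+ direction became 0 under both scalings and without either Reg4+ DCS library or Lgr5+ replicate 2, and 1 without Lgr5+ replicate 1.

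The kinase route from MEK5 to ERK5 and MEF2 induces Klf2 and Klf4 in endothelium. Of its 5 tested genes, 0 were called by limma or edgeR in either direction. At an unadjusted p under 0.05 by limma there were 0 in the DCS and 2 in the Lgr5+ direction (Map2k5 and Mapk7, named after their values were seen). Limma without a trend called 1 gene of the route higher in Lgr5+ cells. Limma with a replicate block called 2, where 34.7% of all tested genes were called in that direction. Without Lgr5+ replicate 1, and without Lgr5+ replicate 2, 1 gene of the route was called higher in Lgr5+ cells. Klf9, Klf13 and Klf15 answer to glucocorticoids. A list of glucocorticoid genes held the receptor Nr3c1 and the inactivating enzyme Hsd11b2 beside response genes, so its counts do not measure a response. Of its 7 tested genes, 1 (Hsd11b2) rose in DCS cells and 4, with Nr3c1 among them, were higher in Lgr5+ cells by limma. The shares over all tested genes were 7.18% and 26.9%, and the median of the list was −0.77. Hsd11b2, the enzyme that inactivates glucocorticoids in colon epithelium, stood at 945 and 1261 against 85.1 and 32.8 RPM (4.34, limma adjusted p = 0.000332). Sult1a1, a sulfotransferase, stood at 28.2 and 60.9 against 329 and 315 RPM (−2.93), and Fkbp5, a receptor co-chaperone, at 4.48 and 3.75 against 17.9 and 7.29 RPM (−1.29, adjusted p = 0.0491). The Fkbp5 call was lost under both scalings (0.160 and 0.153) and without Reg4+ DCS replicate 1 (0.146) or 2 (0.153). The 4 became 2 under both scalings, 1 without Reg4+ DCS replicate 1, and 2 without any of the other 3 libraries. The ratio for Hsd11b2 was 18.7, and 33.6 without Lgr5+ replicate 1.

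A list of 8 cell cycle genes tied to Klf4 or Klf5 in other settings held cyclins, Cdk1 and Odc1 beside 3 inhibitors of cyclin-dependent kinases. Of the 8, 6 were higher in Lgr5+ cells (Ccnb1, Ccnd1, Ccne1, Cdk1 and the inhibitors Cdkn1b and Cdkn1c) and 0 in DCS cells by limma, with a median of −1.12, where 26.9% of all tested genes were higher in Lgr5+ cells and their median was −0.47. Ccnb1, the mitotic cyclin, stood at 27.8 and 28.3 RPM in DCS and 113 and 152 RPM in Lgr5+ cells (−2.19, adjusted p = 0.000763). Cdkn1c, an inhibitor of cyclin-dependent kinases, was also higher in Lgr5+ cells, at 4.65 and 9.74 against 132 and 28.9 RPM (−3.02, adjusted p = 0.00971, and 0.0900 without Reg4+ DCS replicate 1). Cdkn1a, the inhibitor that Klf4 activates, was picked with its values in view and lay at 332 and 237 against 228 and 48.1 RPM (1.41, adjusted p = 0.102). Under each of the other scalings 1 gene of the list was called in the DCS direction. The 6 became 3 under both scalings and when Lgr5+ replicate 2 was left out, and 2 without Reg4+ DCS replicate 1. The Cdkn1c ratio of Lgr5+ to DCS means depended on Lgr5+ replicate 1, without which the DCS mean was 0.249 of the Lgr5+ value and not 0.0892.

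Immediate early genes, which cells switch on within minutes of a stimulus and also during tissue dissociation, moved in the same direction as Klf2 and Klf4. Of 12 tested, 7 rose in Reg4+ DCS cells and 0 were higher in Lgr5+ cells by limma, with a median of 0.93, and 11 had both DCS libraries above both Lgr5+ libraries. Over all tested genes these shares were 7.18% called and 16.1% apart in that direction, with a median of −0.47. Btg2, an antiproliferative p53 target, stood at 699.9 and 705 RPM in DCS cells and 257 and 211 RPM in Lgr5+ cells (1.59, limma adjusted p = 0.00176). Dusp1, a phosphatase of MAP kinases, stood at 375 and 518 against 226 and 162 RPM (1.20, adjusted p = 0.0121, and 0.0727 without Reg4+ DCS replicate 2). The 12 genes summed to 18497 and 21186 RPM in the DCS libraries and 12940 and 8517 RPM in Lgr5+ cells, so that Lgr5+ replicate 1 was higher than replicate 2, as it was for Klf4 and Klf2. The count of 7 became 3 without Reg4+ DCS replicate 1 or Lgr5+ replicate 2, 1 without Reg4+ DCS replicate 2, 3 with no filter on low values, and 11 under both scalings and with a replicate block. edgeR and DESeq2 could use only 5 of the 12, as the other genes were not decoded in every library. Each called 3 of those 5 in the DCS direction, where they called 6.98% and 7.08% of all genes. Limma without a trend called 5 of the 12. The part of the immediate early response in the Klf values was not tested.

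**Figure D5:**
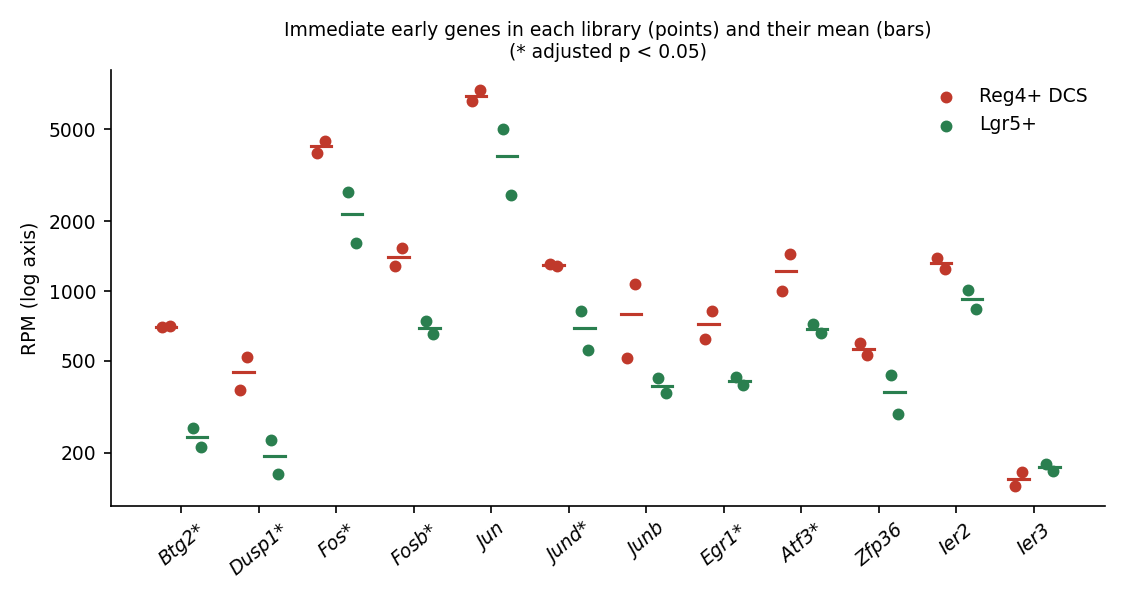
RPM of 12 immediate early genes on a log axis, with 1 point per library and a bar at the mean of each population, ordered by log2 difference. A star marks the 7 genes that passed the test. For every gene but Ier3 both Reg4+ DCS libraries lie above both Lgr5+ libraries.

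Markers of other cells were read for the same libraries. Of 8 colon epithelium genes, 0 rose in DCS cells and 1, the intestinal factor Cdx2, was higher in Lgr5+ cells (50.4 and 41.1 against 208 and 115 RPM, −1.74, limma adjusted p = 0.00490). Zg16 and Fcgbp led the goblet list at 6.65 and 6.25. Dclk1 and Trpm5 led the tuft list at −6.61 and −6.58, with at most 0.870 RPM in a DCS library. Of 8 tested absorptive genes, 1 rose in DCS cells (Guca2a, 1.78) and 3 were higher in Lgr5+ cells, led by Cyp2c55 (−3.26) and Car1 (−2.92). Of 5 tested enteroendocrine genes 0 rose in DCS cells and 1, Chga (−1.92), was higher in Lgr5+ cells. Over all tested genes 7.18% were called higher in DCS cells and 26.9% in Lgr5+ cells, so these counts are not read as particular to a cell type. Without Lgr5+ replicate 1 the Guca2a difference was 2.60 and that of Car1 −1.60, and without Lgr5+ replicate 2 they were 0.97 and −4.24. The ratio of DCS to Lgr5+ means without Lgr5+ replicate 1 moved from 0.0595 to 0.149 for Cyp2c55, from 71.1 to 256 for Zg16 and from 68.8 to 128 for Fcgbp. The calls of Guca2a and Car1 were lost without Reg4+ DCS replicate 1 (adjusted p of 0.0825 and 0.0707) and replicate 2 (0.131 and 0.116), and that of Chga without replicate 1 (0.0542). Of the leukocyte genes, 1 was tested, Ptprc, listed at 0 in both DCS libraries and at 40.1 and 9.55 RPM in Lgr5+ cells. No stromal or erythrocyte gene passed the filter, and their sums stayed at or under 4.99 and 0.754 RPM in every library.

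Profiles most like that of Klf4 over the 4 libraries, by Euclidean distance of centred log2(RPM + 1) among 1024 genes within 4-fold of its mean, were those of Cyp2c68 (0.0919), Pde2a (0.319) and Selm (0.328). Cyp2c68, a cytochrome P450, stood at 227 and 267 RPM in DCS cells and 95.3 and 39.3 RPM in Lgr5+ cells, and was, like Klf4, higher in Lgr5+ replicate 1 than in replicate 2. Pde2a, a phosphodiesterase of cyclic nucleotides, stood at 190.0 and 253 against 76.5 and 39.5 RPM. For Klf13, the member with the lowest difference, the nearest of 4937 genes were Son (0.0212), Topors (0.0483) and Tnfrsf12a (0.0760), each highest in Lgr5+ replicate 1 and lowest in Reg4+ DCS replicate 1. With 4 libraries such likeness is a description.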

How the data were processed

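RNA of sorted cells was prepared as CEL-seq libraries and read as 50 bp paired ends on a HiSeq 2500, per the labels' protocols, and BWA 0.6.2-r126 and mm10 are named in the submitters' processing notes. The counting of genes, with any use of strand or molecular identifiers, was not given in the sources used here. The authors deposited 1 table of RPM for 14519 genes in 4 columns. Genes above 0 numbered 12874 in each Reg4+ DCS column, and 14209 and 14211 in the Lgr5+ columns. With equal counts in both DCS columns it is unclear how zeros were set, so a listed 0 is not read as absence of a transcript. Whole reads were recovered from the steps of these values: 100% of values in both Lgr5+ columns were whole within 0.01 reads, and 99.95% and 99.1% of the Reg4+ DCS values were decoded as the mean of 2 parts, leaving 7 and 129 genes undecoded, which the count tests left out.

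Genes with at least 5 RPM in at least 2 libraries were tested with limma 3.58.1 (R 4.3.3, lmFit and eBayes with trend) on log2(RPM + 1), a scale that understates the change of low genes. Group was the only term, and calls were made at a Benjamini-Hochberg adjusted p under 0.05 over all tested genes. The p-values rest on the spread between 2 libraries per group, which limma draws toward the trend of spread over all tested genes. Each Reg4+ DCS value is a mean of 2 parts while the Lgr5+ values showed 1 part, so the spreads of the groups are not alike. Alternatives included edgeR 4.0.16 and DESeq2 1.42.0 on recovered reads with library totals as the scale. The decoding and the fit were tested on simulated data. Coordinates come from GENCODE M21, and promoter letters from RefSeq (GRCm38.p6). Named genes were all Klf and Sp genes of the table, up to 2 called genes per direction with the largest difference from each other list, and the 3 nearest profiles of the members with the largest and smallest difference. Cdkn1a, Map2k5, Mapk7 and called genes listed only by name fall outside this rule. The members and lists were chosen with earlier results of these data known.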

Additional observations from a re-analysis of the deposited data

How the results depend on the processing

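Over 14 alternatives, Klf2 was called higher in Reg4+ DCS cells in 14 and Klf4 in 12. The count of genes higher in Reg4+ DCS cells (731) became 1618 under median-of-ratios and 1578 under TMM scaling, and that higher in Lgr5+ cells (2744) became 1243 and 1268, so that 43.4% and 44.6% of calls were in the Lgr5+ direction in place of 79.0%. The 2 members called became 4 under both scalings. Fits without 1 library leave 1 library in a group, and their p-values rest on the spread of the other group and of all genes. Without 1 library the counts ranged from 349 to 706 and from 1060 to 2288, and that of members from 1 to 2; no member was called higher in Lgr5+ cells under any alternative. Signs turned for members that were not called: under median-of-ratios and TMM scaling Klf10 stood at 0.46 and 0.44, Klf13 at 0.20 and 0.18 and Klf16 at 0.35 and 0.34. Without 1 library the range was −0.45 to 0.47 for Klf3, −0.35 to 0.70 for Klf5, −0.17 to 0.069 for Klf10, −0.63 to 0.010 for Klf13 and −0.38 to 0.11 for Klf16. Of the genes with like profiles, Son stood at 0.19 and 0.18 (−0.65 to 0.018 without 1 library), Topors at 0.17 and 0.15 and Tnfrsf12a at 0.17 and 0.15. The cause was not tested, beyond that a scaling shifts all genes of a library alike. In the fit with a replicate block, 910 and 3534 genes and 3 members were called, Klf6 the third (adjusted p = 0.0227). The labels do not say that a number marks a shared round, and the replicate 1 minus 2 differences of the populations correlated at 0.212 over 10183 genes. Klf15 had at most 15 reads in a library and was not called with no filter either.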
